A study of Mus musculus with 13 samples.

Results

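Immunoglobulin genes were examined in whole parametrial white adipose tissue (pmWAT), the visceral depot beside the uterus of female mice. Members were all mouse genes that GENCODE vM39 annotates as an immunoglobulin variable (V) or constant (C) gene, plus Jchain, with at least 30 counts summed over the 13 libraries. Of 226 such genes with a row among the 33618 identifiers, 21 were under this minimum and 205 were members. They were 97 heavy-chain V genes (Ighv), 92 kappa V genes (Igkv), 3 lambda V genes (Iglv), 12 constant genes and Jchain. At the edge of the rule, Ighv8-2 (29 summed counts) and Igkv4-71 (26 summed counts) stayed out, while Igkv4-92 (32 summed counts) and the IgE constant gene Ighe (49 summed counts) came in.

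The libraries came from 7 Lmna fl/fl mice and 6 Lmna iADKO mice, 1 library per mouse. Both groups carried Lmna alleles with loxP sites around part of the gene, and the iADKO mice also carried Adipoq-CreERT2, a tamoxifen-inducible Cre driven by an adipocyte promoter. All mice, controls included, were given 50 mg/kg tamoxifen on 5 consecutive days at 12 to 14 weeks of age and were dissected 2 weeks posttamoxifen. The recombinase acts in adipocytes, whereas immunoglobulin transcripts come from cells of the B lineage in the same tissue. The strain background was not given in the sources used here.

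An antibody is made of 2 identical heavy and 2 identical light chains. In each developing B cell, 1 heavy-chain V gene is joined to D and J segments and 1 kappa or lambda V gene to a J segment. A V gene is shared by many B cell clones, and a count per V gene does not hold the junction sequence that tells clones apart. The constant gene spliced to the heavy-chain V region sets the isotype: IgM and IgD are made first, and class switching replaces them by IgG, IgE or IgA. Plasma cells transcribe these genes at very high levels, and Jchain encodes the small protein that links IgA dimers and IgM pentamers.

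Between 18854223 and 19776491 counts per library fell on genes, and members held 82414 to 362627 of them. The level of Lmna, in counts scaled to a common library size (CPM), averaged 84.7 ± 7.51 CPM (SD, n = 7) in fl/fl against 96.7 ± 11.5 CPM (SD, n = 6) in iADKO libraries, a log2 difference of 0.19 (adjusted p = 0.0785 by edgeR's quasi-likelihood test), so the whole-gene count was not lower in the libraries with the knockout label. All 6 adipocyte markers examined fell in iADKO libraries, and summed to 20730 ± 3958 CPM (SD, n = 7) in fl/fl against 11814 ± 1851 CPM (SD, n = 6). CPM values are scaled with edgeR's TMM factors, which were 0.892 to 1.02 in fl/fl and 1.05 to 1.10 in iADKO. Without these factors the median log2 ratio of all 16753 tested genes moved from 0.033 to 0.24, and that of the tested members from 0.63 to 0.81.

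The V genes share 2 sequence features that did not enter the choice of members. The first is the octamer, the promoter element bound by the Oct factors of B cells. In windows of 250 bases before to 50 bases after the annotated start on GRCm39, ATGCAAAT on the gene's strand was present in 79 of 97 Ighv members (81.4%), and its reverse complement ATTTGCAT in 0 of 97. In the 92 Igkv members the orientation was the opposite, with ATTTGCAT in 67 (72.8%) and ATGCAAAT in 2 (2.17%), and ATTTGCAT was in all 3 Iglv members. Either form was found in 1.68% of the promoters of 21757 protein-coding genes. The promoters of Ighv11-2 (chr12:114012383-114012682, minus strand), Igkv14-126 (chr6:67872906-67873205, plus strand) and Ighv7-1 (chr12:113860517-113860816, minus strand), read 5′ to 3′ with the octamer in capitals, are shown because these genes carry results given further on.
Ighv11-2: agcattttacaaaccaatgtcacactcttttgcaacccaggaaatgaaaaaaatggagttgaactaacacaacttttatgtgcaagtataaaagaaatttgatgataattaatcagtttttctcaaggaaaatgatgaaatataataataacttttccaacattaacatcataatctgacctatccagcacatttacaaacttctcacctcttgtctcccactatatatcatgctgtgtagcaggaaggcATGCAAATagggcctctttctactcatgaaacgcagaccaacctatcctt
Igkv14-126: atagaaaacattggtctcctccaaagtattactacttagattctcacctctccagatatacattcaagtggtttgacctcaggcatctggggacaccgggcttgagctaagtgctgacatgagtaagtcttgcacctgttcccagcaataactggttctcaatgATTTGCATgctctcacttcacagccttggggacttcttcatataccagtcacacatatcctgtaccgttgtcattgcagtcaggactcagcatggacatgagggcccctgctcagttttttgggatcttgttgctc
Ighv7-1: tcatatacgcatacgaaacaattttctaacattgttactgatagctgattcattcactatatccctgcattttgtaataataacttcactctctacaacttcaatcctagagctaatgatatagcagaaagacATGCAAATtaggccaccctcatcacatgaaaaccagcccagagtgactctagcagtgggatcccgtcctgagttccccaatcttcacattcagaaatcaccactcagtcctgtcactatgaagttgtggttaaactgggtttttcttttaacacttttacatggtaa
The 3 windows place the octamer at different distances: 86 bases before the annotated start in Igkv14-126, 117 bases before it in Ighv7-1, and at the start itself in Ighv11-2. No exact octamer was present in the windows of Ighv1-11, Igkv8-16, Igkv7-33 or Jchain.

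The other feature is the recombination signal that the RAG proteins cut, a heptamer and a nonamer separated by a spacer, directly downstream of each V gene. The exact heptamer CACAGTG followed 74 of 97 Ighv members, each with a spacer of 22 to 24 bases, and 81 of 92 Igkv members, each with a spacer of 11 to 13 bases. The exact heptamer followed 0 of 3 Iglv members. Only spacers of 11 to 13 or 22 to 24 bases were tried, so each heptamer had to receive a spacer of 1 of these lengths. The nonamer nearest to ACAAAAACC was taken with no limit on mismatches, of which Igkv4-62 had 7. The signals of 3 heavy and light V gene pairs, whose shares are compared further on, are given 5′ to 3′ with the heptamer and the nonamer in capitals. They lie at chr12:113859989-113860027 (Ighv7-1), chr6:70035588-70035615 (Igkv7-33), chr12:114575825-114575862 (Ighv1-11), chr6:70363628-70363655 (Igkv8-16), chr12:114579432-114579469 (Ighv1-12) and chr6:69244844-69244871 (Igkv4-70), all on the minus strand of GRCm39.
Ighv7-1: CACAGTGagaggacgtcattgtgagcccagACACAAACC
Igkv7-33: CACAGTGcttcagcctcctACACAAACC
Ighv1-11: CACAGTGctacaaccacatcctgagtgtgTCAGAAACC
Igkv8-16: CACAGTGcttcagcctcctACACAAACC
Ighv1-12: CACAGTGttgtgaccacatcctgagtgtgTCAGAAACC
Igkv4-70: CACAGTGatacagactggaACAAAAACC
The heavy-chain signals carry the long spacer and the kappa signals the short one, and the printed signals of Igkv7-33 and Igkv8-16 are identical.

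The first question was how much immunoglobulin RNA the tissue held. Summed over all members, the level in fl/fl replicates 1 to 7 was 4737, 7705, 6562, 6843, 15889, 7029 and 14700 CPM. In iADKO replicates 1 to 6 it was 9947, 9691, 17449, 17052, 15773 and 12368 CPM. Of the fl/fl mice, 5 were below all iADKO mice, but replicates 5 and 7 lay within the iADKO range, so the groups overlapped. The means were 9066 ± 4364 CPM (SD, n = 7) in fl/fl against 13714 ± 3508 CPM (SD, n = 6), a ratio of 1.51. Expressed as a share of all counts, members made up 0.861% ± 0.449 (SD, n = 7) in fl/fl against 1.47% ± 0.37 (SD, n = 6), a ratio of 1.71. The sum is a score over the members and was not tested. In bulk tissue, more B-lineage cells and more immunoglobulin RNA per cell cannot be told apart. Both scales are relative, so a larger share of RNA from unchanged B-lineage cells cannot be told apart from these either.

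Each kind of chain had a similar ratio. The 8 heavy-chain constant genes summed to 3947 ± 1925 CPM (SD, n = 7) in fl/fl against 5985 ± 1574 CPM (SD, n = 6), a ratio of 1.52. The 4 light-chain constant genes had a ratio of 1.55, the Ighv genes of 1.49, the Igkv genes of 1.42 and the 3 Iglv genes of 1.82. The library names carry running numbers, which fall into runs. Within the run holding fl/fl replicates 4 and 5 and iADKO replicates 4 and 6, the log2 ratio of the summed level was 0.37. Within the run holding fl/fl replicates 1, 2 and 3 and iADKO replicate 2 it was 0.61. The other runs held 1 group only.

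**Figure D1:**
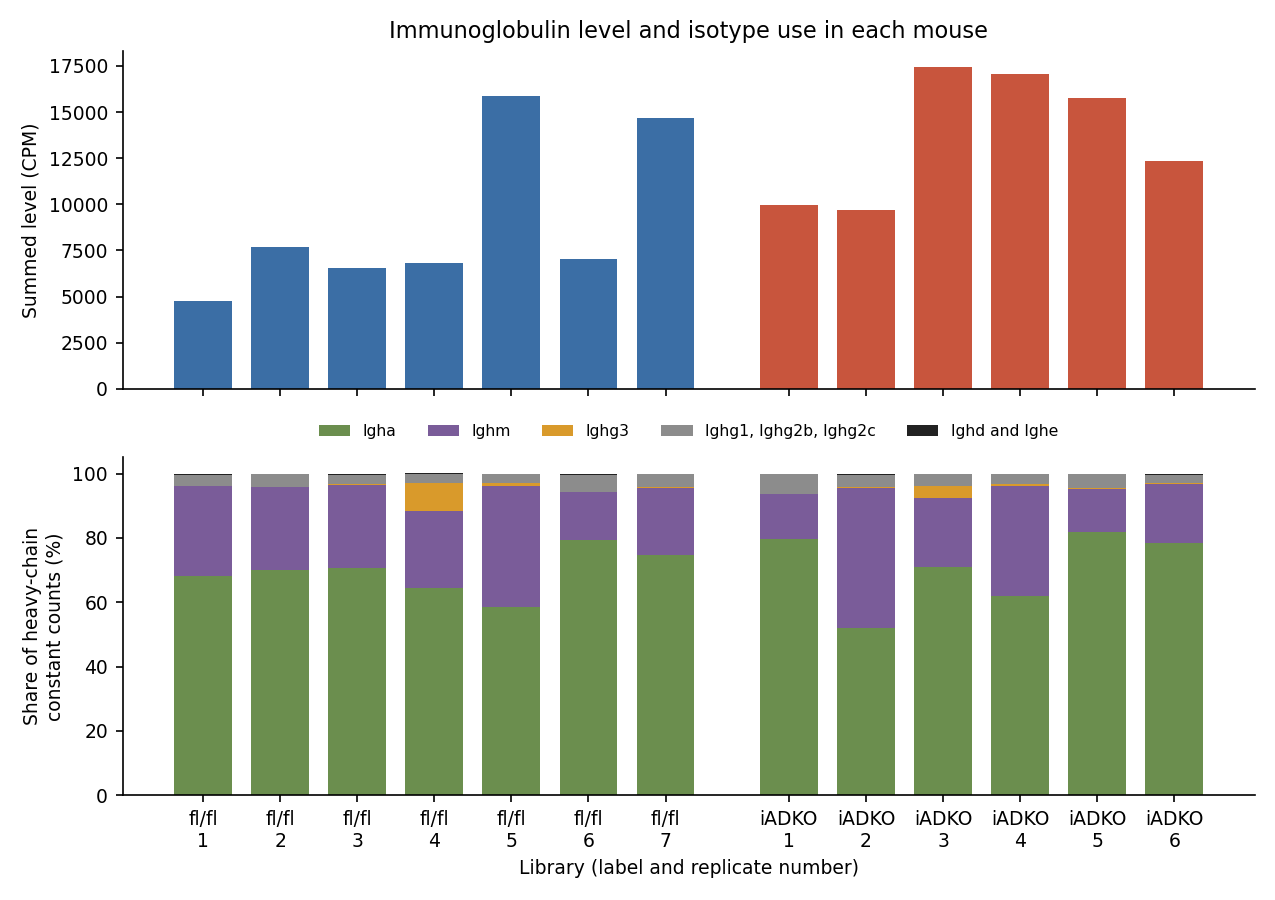
The upper bars give the summed level of the 205 members in CPM for each mouse (blue, fl/fl; red, iADKO), and the lower bars the percentage of heavy-chain constant counts on each isotype gene. The level runs from 4737 to 17449 CPM, Igha takes the largest share of these raw counts in every library, and Ighg3 is visible in fl/fl replicate 4 and iADKO replicate 3.

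Of the 205 members, 180 passed edgeR's filter on low counts and were tested, and 25 were not, Ighe among them. Of the tested members, 16 (8.89%) were higher in iADKO mice past the adjusted threshold of 0.05, against a background of 14.1% of all 16753 tested genes, and 0 were lower, against 16.3% (30.5% in either direction). DESeq2's Wald test called 25 higher and 0 lower. At an unadjusted p under 0.05 there were 39 members (21.7%), against 42.6% of all genes, and all 39 were higher in iADKO. The count rested on which mice were used: leaving out 1 mouse at a time gave 7 (without fl/fl replicate 3) to 35 calls (without fl/fl replicate 5), 22 without fl/fl replicate 7, and 8, 9 and 10 without fl/fl replicate 1, fl/fl replicate 2 and iADKO replicate 5. With runs of library numbers as a block, 0 members and 54 genes were called, and 22 members had an unadjusted p under 0.05. Runs holding only fl/fl or only iADKO mice add nothing to the genotype contrast of that fit. It thus compares fewer mice, and in its count the loss of mice and the runs cannot be told apart. Directions were uneven: 150 tested members had a positive and 30 a negative log2 fold change, with a median of 0.62 beside 0.033 over all tested genes. The members are transcribed by the same B-lineage cells of the same mice, so the 150 are not separate observations. The spread between mice was wide, with a median coefficient of variation of 71.4% in fl/fl and 68.2% in iADKO for the 168 tested V members, of 64.7% and 46.1% for the 12 tested constant genes and Jchain, and of 13.9% and 11.9% for all tested genes.

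**Figure D2:**
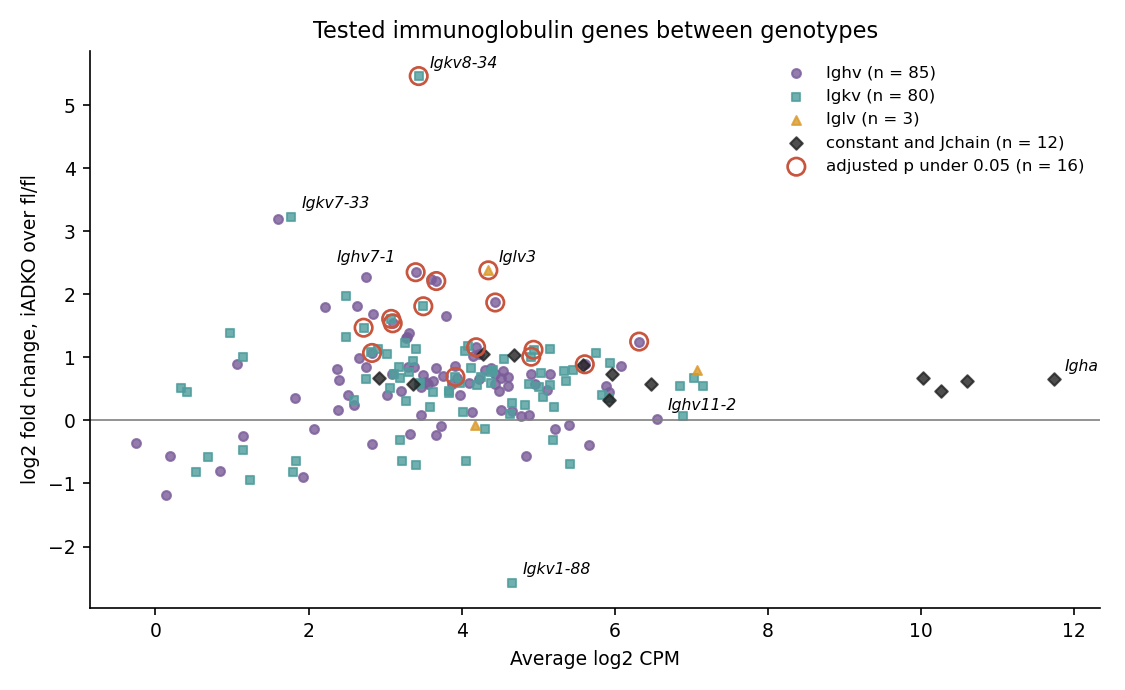
Each point is 1 of the 180 tested members, placed by its average log2 CPM (x axis) and its log2 fold change of iADKO over fl/fl (y axis), with red circles around the 16 called members. Most points lie above 0, the called members are all V genes, and the constant genes on the right lie between 0.32 and 1.05.

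No constant gene passed the threshold. Igha (ENSMUSG00000095079, chr12:113218450-113223856), the IgA heavy chain, was the member with the most counts. It was at 1438, 2214, 2060, 1980, 4083, 2340 and 4824 CPM in fl/fl replicates 1 to 7, and at 3427, 2314, 5300, 4848, 5620 and 3936 CPM in iADKO replicates 1 to 6. The ranges overlapped through fl/fl replicates 5, 6 and 7 and iADKO replicate 2, and the log2 fold change was 0.65 (standard error, SE, 0.28; adjusted p = 0.0959). Igkc (chr6:70703419-70703950), the kappa constant gene, had a log2 fold change of 0.62 (SE 0.25, adjusted p = 0.0781), from 1256 ± 547 CPM (SD, n = 7) to 1926 ± 448 CPM (SD, n = 6). Jchain (chr5:88667668-88675750) went with them, at 821 ± 409 CPM (SD, n = 7) in fl/fl against 1314 ± 377 CPM (SD, n = 6), with a log2 fold change of 0.68 (SE 0.30, adjusted p = 0.104). With library-number runs as a block, where runs of a single group add nothing, Igha, Igkc and Jchain had adjusted p values of 0.413, 0.267 and 0.352.

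Ighm (chr12:113382178-113386350), the IgM heavy chain, varied more. Its level in fl/fl replicates 1 to 7 was 590.4, 815, 752, 726, 2617, 432 and 1352 CPM, and in iADKO replicates 1 to 6 it was 594, 1941, 1612, 2647, 919.9 and 925 CPM. High and low mice were present in both groups, and the log2 fold change was 0.47 (SE 0.44, adjusted p = 0.444), and 0.21 to 0.89 with 1 mouse left out. Ighd, which is co-expressed with Ighm in naive B cells and has a similar exon length (1900 and 1886 bases), was far lower, at 8.33 ± 2.33 CPM (SD, n = 7) in fl/fl against 12.4 ± 4.83 CPM (SD, n = 6), with a log2 fold change of 0.58 (adjusted p = 0.0945). Per 100 counts of Ighm there were 1.07 ± 0.615 counts of Ighd in fl/fl (SD, n = 7), against 1.04 ± 0.497 in iADKO (SD, n = 6).

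The IgG subclass genes were minor. Ighg2c, the subclass gene that some mouse strains carry in place of Ighg2a, came nearest to the threshold, with a log2 fold change of 0.74 (SE 0.27, adjusted p = 0.0535). Ighg1 was at 1.04 on the log2 scale (adjusted p = 0.107) and Ighg2b at 0.58 (adjusted p = 0.258). Ighg2b and Ighg2c share 87.7% of their bases over their best alignment, and reads that fit both could have been split or dropped by the authors' counting. Ighg3 was set by single mice. It was at 1.15, 2.63, 12.8, 269.9, 65.7, 5.74 and 22.8 CPM in fl/fl replicates 1 to 7, and at 5.79, 25.4, 281, 49.9, 23.7 and 22.3 CPM in iADKO replicates 1 to 6. In each group, 1 mouse was thus well above its group, and the log2 fold change of 0.32 (SE 1.16, adjusted p = 0.852) moved to between -1.10 and 1.87 when each mouse was left out. Ighe was near absent, with 49 counts in all and 0 in fl/fl replicates 1 and 4, where a count of 0 allows up to 0.172 and 0.161 CPM.

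Divided by exon length, Igkc made up 92.8% to 97.1% of the light-chain constant counts of each mouse, and the lambda genes the rest. The log2 fold change of Iglc1 was 0.88 (adjusted p = 0.13), that of Iglc2 1.05 (adjusted p = 0.0758) and that of Iglc3 0.67 (adjusted p = 0.374), which was 0.20 to 0.98 with 1 mouse left out. Iglc2 and Iglc3 share 95.1% of their bases, so that their separate counts are uncertain. The exon length spans all annotated exons of a gene and not the transcript in use, with 2678 bases for Ighg2b and 1326 for Ighg2c, so levels of different genes compare only roughly. On this scale Igkc was highest at 2360 CPM per kb in fl/fl and 3620 in iADKO, followed by Igha at 1014 and 1589, Ighm at 552 and 763, and Jchain at 326 and 522.

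**Figure D3:**
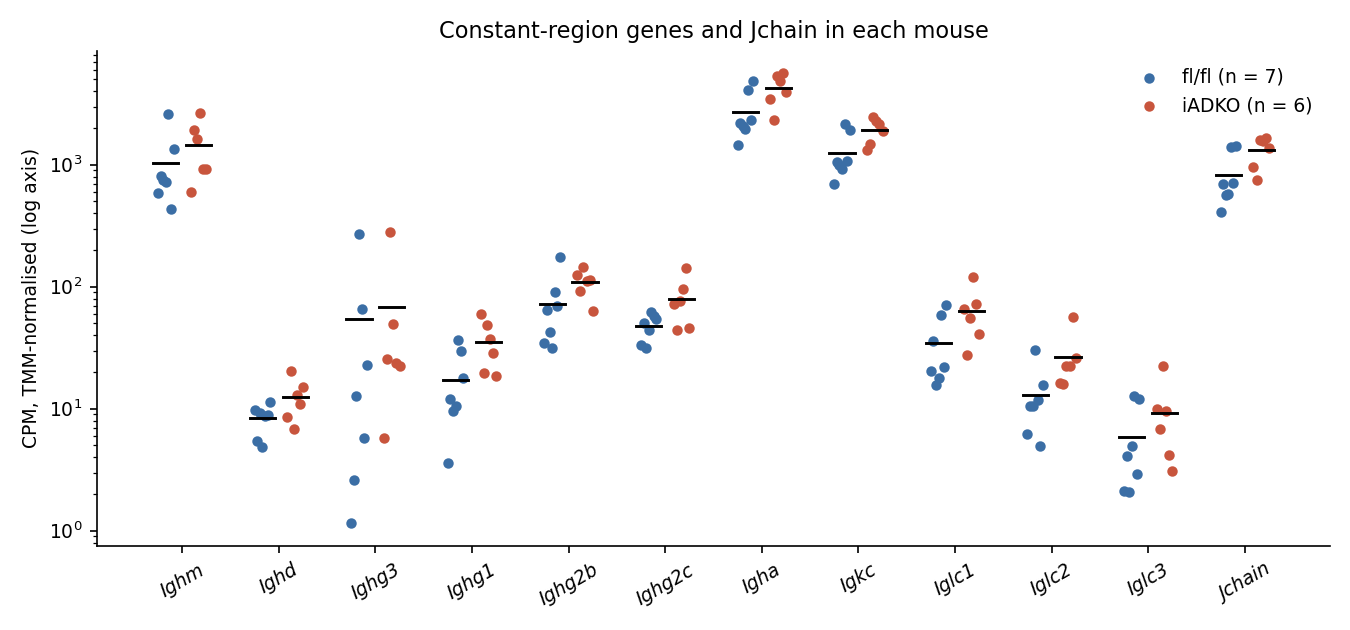
Each point is the CPM of a gene in 1 mouse on a log axis (blue, 7 fl/fl; red, 6 iADKO), with black lines at the group means. The groups overlap for every gene, and the widest spread is that of Ighg3, from 1.15 to 281 CPM.

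Isotype use was compared as the share of each isotype among the counts on heavy-chain constant genes, tested two-sided by exact permutation of the mice over 1716 splits, whose smallest possible p is 0.000583, with adjustment over 4 shares. IgA held most of these counts in both groups, at 69.4% ± 6.74 (SD, n = 7) in fl/fl and 70.8% ± 11.8 (SD, n = 6) in iADKO (exact permutation p = 0.792, adjusted p = 0.874). Its share was 68.1, 70, 70.6, 64.6, 58.6, 79.5 and 74.7% in fl/fl replicates 1 to 7 and 79.8, 51.9, 70.9, 62.1, 81.9 and 78.3% in iADKO replicates 1 to 6. The range of iADKO extended past that of fl/fl on both sides.

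IgM was the counterpart. Its share was 28.0, 25.7, 25.8, 23.7, 37.6, 14.7 and 20.9% in fl/fl replicates 1 to 7, and 13.8, 43.5, 21.6, 33.9, 13.4 and 18.4% in iADKO replicates 1 to 6. The means of 25.2% ± 6.99 (SD, n = 7) in fl/fl against 24.1% ± 12.1 (SD, n = 6) differed by less than the spread between mice (exact permutation p = 0.842, adjusted p = 0.874). IgG held 5.12% ± 2.96 (SD, n = 7) in fl/fl against 4.81% ± 1.64 (SD, n = 6) (exact permutation p = 0.874, adjusted p = 0.874), with the highest share, 11.6%, in fl/fl replicate 4. Lambda made up 4.01% ± 1.04 (SD, n = 7) in fl/fl against 4.90% ± 1.45 (SD, n = 6) of the light-chain constant counts (exact permutation p = 0.222, adjusted p = 0.874). The 95% Wilson intervals of these shares in single libraries were at most 0.477 percentage points to each side, which covers counting error only. Within runs of library numbers the direction differed: the IgA share was 61.6% in fl/fl replicates 4 and 5 and 70.2% in iADKO replicates 4 and 6, but 69.6% in fl/fl replicates 1, 2 and 3 and 51.9% in iADKO replicate 2. In the same order, IgM was at 30.6% and 26.2%, then at 26.5% and 43.5%, IgG at 7.63% and 3.38%, then at 3.62% and 4.09%, and lambda at 4.61% and 4.92%, then at 3.77% and 3.31%. With counts divided by exon length, IgA was at 62.1% ± 7.41 (SD, n = 7) in fl/fl against 64% ± 12.9 (SD, n = 6), and IgM at 31.7% ± 8.02 (SD, n = 7) in fl/fl against 30.1% ± 13.7 (SD, n = 6). On that scale, which rests on the annotated exons, IgM, at 51.6%, was above IgA, at 43.5%, in iADKO replicate 2, and the closest of the other mice was fl/fl replicate 5, with 45.6% and 50.3%.

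Within IgG, fl/fl replicate 4 drew 75.8% and iADKO replicate 3 51.0% of the subclass counts from Ighg3, while the share of Ighg3 in the other 11 mice was between 1.59% and 25.8%. Ratios between chains were far steadier than levels. Jchain had 0.299 ± 0.0222 counts per Igha count (SD, n = 7) in fl/fl and 0.311 ± 0.0231 (SD, n = 6) in iADKO. Igkc had 0.324 ± 0.0242 counts per heavy-chain constant count (SD, n = 7) in fl/fl against 0.325 ± 0.029 (SD, n = 6). By contrast, the count ratio of Igha to Ighm ran from 1.56 to 5.41 in fl/fl and from 1.19 to 6.11 in iADKO.

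Each of the 16 called members was a V gene: 8 Ighv, 7 Igkv and Iglv3. In 15 of them the groups overlapped. Igkv4-74, a kappa V gene, was the exception (chr6:69161810-69162381). It was at 4.48, 0.494, 2.37, 0.591, 9.77, 4.30 and 7.92 CPM in fl/fl replicates 1 to 7, and at 14.1, 11.5, 13, 15.1, 12.1 and 12.6 CPM in iADKO replicates 1 to 6. All iADKO mice were above all fl/fl mice, with a log2 fold change of 1.61 (SE 0.53, adjusted p = 0.036). This is 1 of 180 tested members, or 0.556%, beside 2.71% of all tested genes. Its call held in 5 of 13 fits that each left out 1 mouse.

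Iglv3, a lambda V gene, was at 4.94, 4.61, 18.8, 1.99, 8.35, 3.31 and 6.09 CPM in fl/fl replicates 1 to 7. It was at 16.2, 6.72, 31.8, 13.9, 101 and 44.6 CPM in iADKO replicates 1 to 6. The iADKO values of 31.8, 101 and 44.6 CPM were above all fl/fl values. Those of 16.2, 6.72 and 13.9 CPM lay within the fl/fl range of 1.99 to 18.8 CPM. The log2 fold change was 2.38 (SE 0.65, adjusted p = 0.0157), and the call held in all 13 fits with 1 mouse left out, at 1.72 to 2.87. The other lambda V genes were not called, with log2 fold changes of 0.80 for Iglv1 (adjusted p = 0.168) and -0.066 for Iglv2 (adjusted p = 0.93).

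Ighv7-1, the V gene of the T15 family of antibodies to phosphorylcholine, was at 1.21, 1.98, 1.79, 0.161, 8.35, 2.04 and 9.43 CPM in fl/fl replicates 1 to 7. It was at 13, 16.6, 6.64, 44.8, 23.5 and 5.11 CPM in iADKO replicates 1 to 6. Of the iADKO mice, 4 were above all fl/fl mice, and the log2 fold change was 2.35 (SE 0.72, adjusted p = 0.0274). The call was lost when fl/fl replicate 1, 2, 3 or 6 or iADKO replicate 4 was left out, with a log2 fold change of 1.86 to 2.80 over the 13 fits. Igkv7-33, the kappa V gene that pairs with it in T15 antibodies, was at 0.0575, 0.0549, 0.173, 0, 3.59, 0 and 0.647 CPM in fl/fl and at 0.0487, 2.66, 0.337, 18.5, 12.0 and 4.17 CPM in iADKO, in the same order. It did not pass the threshold (log2 fold change 3.23, SE 1.19, adjusted p = 0.0574). A count of 0 allows up to 0.161 and 0.166 CPM in fl/fl replicates 4 and 6. By CPM, the 2 iADKO mice with the highest Igkv7-33, replicates 4 and 5, also had the highest Ighv7-1. As a percentage of heavy V counts, Ighv7-1 was highest in iADKO replicates 4 (2.02%) and 2 (1.28%), with 1.03% in replicate 5. In iADKO replicate 1, Ighv7-1 was at 13 CPM but Igkv7-33 at 0.0487 CPM.

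A call could also rest on 1 mouse. Igkv8-34 had the highest log2 fold change of all members, 5.46 (SE 1.57, adjusted p = 0.0209). It was at 127 CPM in iADKO replicate 3 and at 0.196 to 5.45 CPM in the other 5 iADKO mice, beside 0 to 2.03 CPM in fl/fl. Without iADKO replicate 3 it was not called, at a log2 fold change of 1.73. By contrast, Igkv6-32 had a small difference of 0.69 (SE 0.20, adjusted p = 0.021), from 11.7 ± 1.5 CPM (SD, n = 7) to 18.8 ± 7.68 CPM (SD, n = 6), and was called in all 13 fits with 1 mouse left out. Igkv6-32 was called in 5 of 9 other ways of processing. Its share of light V counts was not higher, at 0.815% ± 0.382 (SD, n = 7) in fl/fl against 0.8% ± 0.361 (SD, n = 6). Igkv6-23, at 1.01 (SE 0.29, adjusted p = 0.0208), was also called in all 13 fits, and in 6 of 9 other ways of processing. Its share was 1.31% ± 0.462 (SD, n = 7) in fl/fl against 1.67% ± 0.486 (SD, n = 6). Igkv8-28 (1.81) and Ighv1-39 (1.87) were the other genes called in all 13 fits. Of the most used heavy V genes, Ighv3-6 passed the threshold (1.25, SE 0.41, adjusted p = 0.0377), but in 6 of 13 such fits.

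V gene use was then examined within libraries, as the share of each gene among the heavy or light V counts. Heavy V counts numbered 11206 to 52307 per library, which set the Wilson half-width of a V gene's share at 0.516 percentage points or less. The most used heavy V gene differed between mice. It was Ighv11-2 in fl/fl replicates 1, 2 and 5 and iADKO replicate 4, and Ighv1-11 in fl/fl replicates 3 and 4 and iADKO replicates 2 and 3. Ighv3-6 led in iADKO replicates 5 and 6, Ighv5-17 in fl/fl replicate 6, Ighv1-9 in fl/fl replicate 7 and Ighv1-81 in iADKO replicate 1. The leading gene held 4.55% to 14.9% of the heavy V counts.

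The 6 Ighv and 6 Igkv genes with the most counts over all mice did not pass the threshold, apart from Ighv3-6. Ighv1-26 averaged 51.8 ± 29.4 CPM (SD, n = 7) in fl/fl against 71 ± 26.9 CPM (SD, n = 6), with a log2 fold change of 0.45 (adjusted p = 0.326), and Ighv9-3 had one of 0.55 (adjusted p = 0.181). Among the kappa genes the values were 0.54 for Igkv10-96 (adjusted p = 0.279), 0.68 for Igkv1-117 (adjusted p = 0.0654), 0.54 for Igkv1-110 (adjusted p = 0.14) and 0.35 for Igkv1-135 (adjusted p = 0.613). Igkv1-117 had the narrowest standard error of these, 0.26, and was at 64.2 to 155 CPM in fl/fl and 85.5 to 218 CPM in iADKO.

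Single genes rose far above their usual share in single mice. Ighv1-9 made up 12.1% of the heavy V counts of fl/fl replicate 7, beside 1.04% to 3.35% in the other 12 mice. Igkv1-88 made up 9.56% of the light V counts in the same mouse, beside 0.0685% to 0.764% in the others. Neither gene was called (log2 fold changes of -0.39 and -2.57, adjusted p = 0.694 and 0.163), and both negative values became positive without fl/fl replicate 7. Igkv8-34 held 3.83% of the light V counts in iADKO replicate 3 and at most 0.296% elsewhere.

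**Figure D4:**
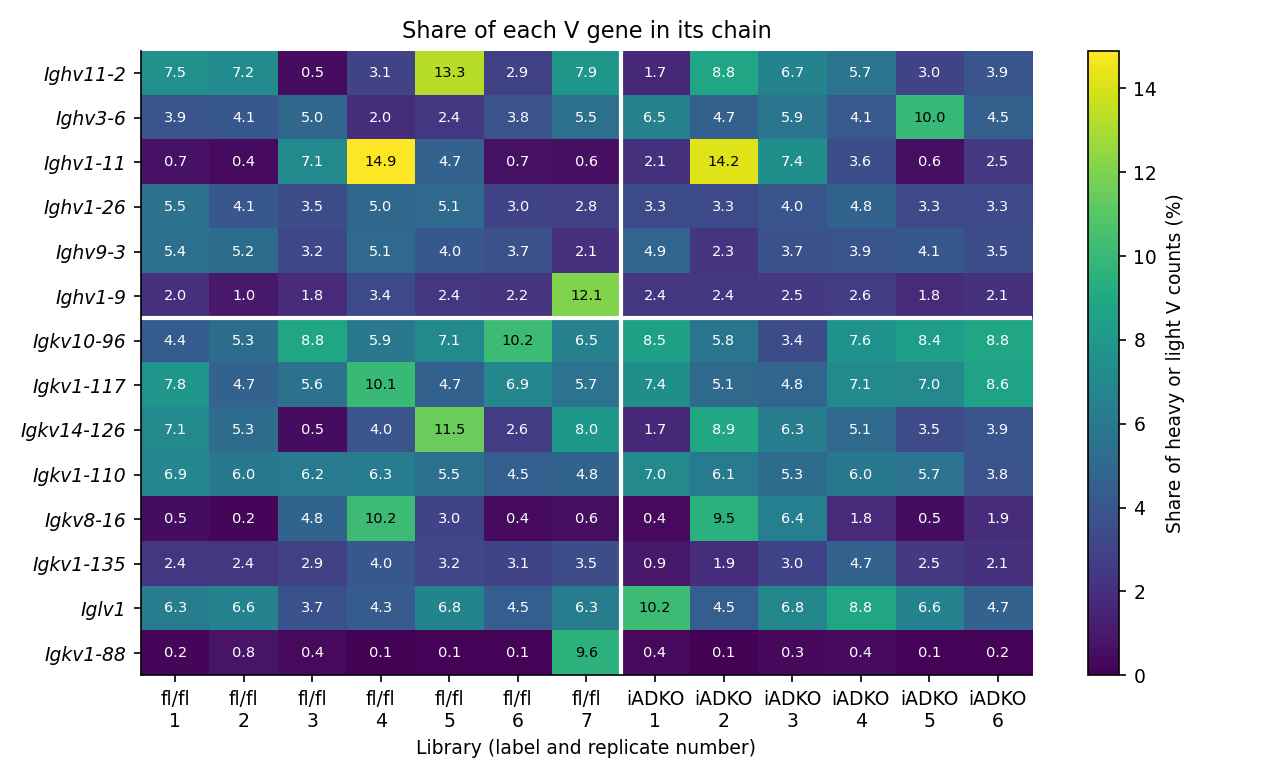
Each cell gives the percentage of heavy V counts (upper 6 rows) or light V counts (lower 8 rows) on a V gene in 1 mouse, for the most counted genes of each chain and Igkv1-88, with fl/fl on the left and iADKO on the right. Bright cells mark single mice, such as Ighv1-9 (12.1%) and Igkv1-88 (9.56%) in fl/fl replicate 7 and Ighv1-11 in fl/fl replicate 4 (14.9%) and iADKO replicate 2 (14.2%).

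Diversity was described by the effective number of V genes, the number of equally used genes that would give the same chance of drawing the same gene again. For the heavy chain it was 34.6, 36.2, 39.4, 24.2, 28.4, 43.2 and 26.9 in fl/fl replicates 1 to 7, and 36.3, 23.9, 36.5, 45.1, 35.1 and 44.2 in iADKO replicates 1 to 6. The 3 lowest values were in iADKO replicate 2, fl/fl replicate 4 and fl/fl replicate 7, where the leading gene held 14.2%, 14.9% and 12.1% of the heavy V counts. The means were 33.3 ± 7.00 (SD, n = 7) in fl/fl against 36.9 ± 7.65 (SD, n = 6), and for the light chain 28.2 ± 3.60 (SD, n = 7) in fl/fl against 28.8 ± 3.38 (SD, n = 6). At an equal depth of 11206 counts, 91.0 ± 0.74 heavy V genes were expected in fl/fl (SD, n = 7), against 91.0 ± 1.70 in iADKO (SD, n = 6). The large Ighv1 family held 51.9% ± 4.35 (SD, n = 7) in fl/fl against 53.0% ± 3.3 (SD, n = 6) of the heavy V counts. The small Ighv7 family held 1.18% ± 0.326 (SD, n = 7) in fl/fl against 2.40% ± 1.10 (SD, n = 6), and the groups overlapped. This family includes the called genes Ighv7-1 and Ighv7-3, so its higher share is not a separate result. The Ighv5 family went the other way, at 10.5% ± 1.8 (SD, n = 7) in fl/fl against 8.13% ± 1.71 (SD, n = 6), also with overlap. The families named are a selection, and family shares were not tested.

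Because a B cell uses 1 heavy and 1 light V gene, shares of the 2 chains were compared over the 13 mice, for all 5472 pairs of a heavy and a light V gene with at least 1000 summed counts. The pairs named here were chosen from that scan after their values were seen. The median Pearson r over all pairs was -0.013, 3 pairs had an adjusted permutation p under 0.05 by Pearson's r, and 0 pairs by Spearman's rho. Permutation p-values used 100000 resamples, so 1e-05 is the smallest they can give. A pair that alone reaches this limit gets an adjusted p of 0.0547, as Ighv11-2 and Igkv14-126 did by rho. With this number of resamples 1 pair alone could thus not pass, and no conclusion is drawn from the 0 pairs by rho.

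Ighv11-2 and Igkv14-126 had r = 0.979 (permutation p = 1e-05, adjusted p = 0.0182) and rho = 0.989 (permutation p = 1e-05, adjusted p = 0.0547). This is the known V gene pair of B-1 cells that bind phosphatidylcholine. Ighv11-2 held 7.47, 7.21, 0.46, 3.06, 13.3, 2.88 and 7.90% of the heavy V counts in fl/fl replicates 1 to 7, and Igkv14-126 held 7.10, 5.26, 0.495, 3.95, 11.5, 2.61 and 7.96% of the light V counts. In iADKO replicates 1 to 6 the shares were 1.70, 8.80, 6.74, 5.73, 3.05 and 3.90% for Ighv11-2 and 1.67, 8.87, 6.34, 5.07, 3.47 and 3.91% for Igkv14-126. The 2 genes thus held nearly the same share of their chains in each mouse. The correlation was 0.978 within fl/fl and 0.990 within iADKO, and 0.958 without fl/fl replicates 3 and 5, the mice farthest from the median. Neither gene passed the threshold between genotypes, with log2 fold changes of 0.026 (SE 0.74, adjusted p = 0.983) and 0.076 (SE 0.72, adjusted p = 0.945). Ighv11-2 is 98.9% identical to Ighv11-1, so that its count may hold reads of that gene.

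Ighv1-11 and Igkv8-16 had r = 0.989 (permutation p = 1e-05, adjusted p = 0.0182) and rho = 0.912 (permutation p = 7e-05, adjusted p = 0.123). Ighv1-11 was at 14.9% in fl/fl replicate 4 and 14.2% in iADKO replicate 2, where Igkv8-16 was at 10.2% and 9.50%. In fl/fl replicates 1, 2, 6 and 7 and iADKO replicate 5 both were under 1%. Without fl/fl replicate 4 and iADKO replicate 2, r was 0.964, and it was 0.976 within iADKO. Their log2 fold changes were 0.86 (adjusted p = 0.491) and 0.91 (adjusted p = 0.494). The third pair, Ighv1-12 and Igkv4-70, had r = 0.918 (permutation p = 1e-05, adjusted p = 0.0182), rho = 0.951 (permutation p = 3e-05, adjusted p = 0.0821) and, without fl/fl replicate 7 and iADKO replicate 1, r = 0.835. Within fl/fl and iADKO its r was 0.938 and 0.883.

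Another V gene pair of known antibodies did not pass the threshold, which does not show that its genes are unrelated. Ighv12-3 and Igkv4-91, also known as a pair that binds phosphatidylcholine, had r = 0.444 (permutation p = 0.125, adjusted p = 0.975) and rho = 0.462 (permutation p = 0.115, adjusted p = 0.989), and r = 0.391 without the 2 mice farthest from the median. Ighv1-9 and Igkv1-88 are given for their high shares in fl/fl replicate 7 and not as a pair of known antibodies. They had r = 0.971 (permutation p = 0.0741, adjusted p = 0.96) but rho = 0.016 (permutation p = 0.963, adjusted p = 1), and r was -0.138 without fl/fl replicates 2 and 7, so the relation rests on fl/fl replicate 7. Igkv7-33 was under the count minimum and was not paired with Ighv7-1.

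**Figure D5:**
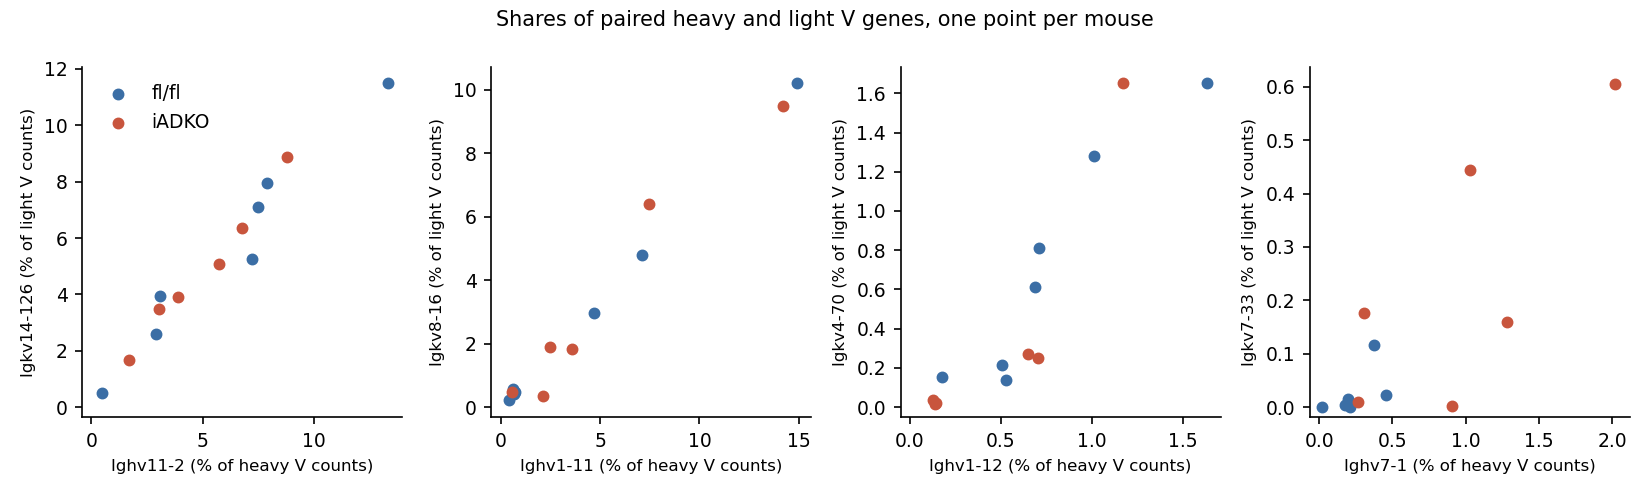
Each point is 1 mouse (blue, fl/fl; red, iADKO), placed by the share of the heavy V gene among heavy V counts (x axis) and of the light V gene among light V counts (y axis), both in percent. The first 3 pairs lie along a line, with r of 0.979, 0.989 and 0.918, and in the fourth the 2 mice with the most Ighv7-1, at 2.02% and 1.28%, have 0.606% and 0.16% of Igkv7-33.

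Genes of the B lineage and of antibody handling were read beside the members. Of 10 B cell markers, 3 were higher in iADKO: Cd22, an inhibitory receptor of B cells (log2 fold change 0.99, adjusted p = 0.0117), and the antigen receptor subunits Cd79b (0.79, adjusted p = 0.0338) and Cd79a (0.66, adjusted p = 0.05 after rounding up). Ebf1, a B cell transcription factor also active in adipocytes, was the most expressed of them and was at -0.21 (adjusted p = 0.0947). The list's median was 0.74, and its summed level was 123 to 181 CPM in fl/fl and 144 to 205 CPM in iADKO. Much of this sum was Ebf1, which averaged 93.2 of 148 CPM in fl/fl and 80.6 of 174 CPM in iADKO, so the sum is a poor measure of B cells. Of 10 plasma cell markers, 4 were higher: Sdc1 (0.74, adjusted p = 0.00477), which epithelial cells also express, the BAFF and APRIL receptors Tnfrsf17 (0.83, adjusted p = 0.0136) and Tnfrsf13b (0.57, adjusted p = 0.0315), and Prdm1 (0.55, adjusted p = 0.0199). The transcription factors Xbp1 and Irf4, which plasma cells share with other cells, were at -0.021 (adjusted p = 0.839) and 0.21 (adjusted p = 0.6). The median of the list was 0.53, and its summed level was 393 to 543 CPM and 442 to 613 CPM. Xbp1 made up most of this sum, at a mean of 285 of 453 CPM in fl/fl and 281 of 523 CPM in iADKO.

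Of 13 receptors and transporters of immunoglobulin, 5 of 12 tested were higher: the IgG receptors Fcgr1 (0.70, adjusted p = 0.0112), Fcgr3 (0.65, adjusted p = 0.047) and Fcgr4 (0.87, adjusted p = 0.0097), their signalling chain Fcer1g (0.79, adjusted p = 0.0155), and Fcmr, the IgM receptor (0.98, adjusted p = 0.0164). The most expressed members of the list, the neonatal receptor Fcgrt and the inhibitory Fcgr2b, were at -0.17 (adjusted p = 0.106) and 0.48 (adjusted p = 0.0989). Fcgr4 was at 3.95 to 9.16 CPM in fl/fl and at 7.51 to 14.3 CPM in iADKO. Pigr, which carries IgA and IgM across epithelia, was at 0.253 to 4.12 CPM and 0.0973 to 1.03 CPM (log2 fold change -1.33, adjusted p = 0.132). Macrophages, which carry most of these Fc receptors, had 5 of 7 markers higher, among them Csf1r (0.49, adjusted p = 0.0331) and Mrc1 (0.39, adjusted p = 0.0154), with a median of 0.67, and their summed level was 1617 to 4890 CPM in fl/fl and 2806 to 4810 CPM in iADKO. Lyz2, the most expressed of the 7, was not called (0.72, adjusted p = 0.103). Much of the sum was Lyz2, at a mean of 1360 of 2526 CPM in fl/fl and 2234 of 4012 CPM in iADKO. Among the fl/fl mice the sum was highest in replicates 5 (4890 CPM, with Lyz2 at 3086 CPM) and 7 (3230 CPM, with Lyz2 at 1963 CPM), the mice with the most immunoglobulin RNA. The part of macrophages in the result was not tested.

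The recombinase genes Rag1 and Rag2, which join the V, D and J segments, had 57 counts and 1 count in all, and neither passed the filter on low counts. Of the 4 tested genes of the list of 11 genes of rearrangement and class switching, Cd40 (0.61, adjusted p = 0.0054) and Vpreb3 (0.94, adjusted p = 0.0165) were higher, Ung was at -0.19 (adjusted p = 0.525), and the median was 0.51. Of 10 cytokines and receptors of B cell survival and switching, 3 of 6 tested were higher: Tgfb1, which directs switching to IgA (0.38, adjusted p = 0.0092), the BAFF receptor Tnfrsf13c (0.76, adjusted p = 0.0343) and Il10 (0.92, adjusted p = 0.0487), with a median of 0.39. The BAFF gene Tnfsf13b and the APRIL gene Tnfsf13 were at 0.18 (adjusted p = 0.338) and 0.39 (adjusted p = 0.0684). Of 11 genes of antibody folding and secretion, which other cells also use, Sdf2l1 (0.59, adjusted p = 0.0109) and Creld2 (0.40, adjusted p = 0.0451) were higher. The chaperone Hspa5, the most expressed of them, was at 0.19 (adjusted p = 0.143), and the median was 0.12.

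Markers of other cells that a dissected depot can hold were read in the same way. Of 7 T cell markers, 4 were higher (median 0.44), Cd4 (0.68, adjusted p = 0.00346) and Lck (0.42, adjusted p = 0.00832) among them, and their summed level was 22.6 to 36.6 CPM in fl/fl and 39.9 to 46.6 CPM in iADKO. Of 8 markers of lymphoid stroma and follicles, which would be abundant in lymph node, 3 of 4 tested were higher (median 0.58): Cxcl13 (0.72, adjusted p = 0.0184), Cxcr5 (0.95, adjusted p = 0.023) and Ltb (0.45, adjusted p = 0.0407). Ccl21a, a chemokine of lymph node stroma and lymphatics, was at 0.13 (adjusted p = 0.699). Madcam1 had 42 and Ccl19 114 counts in all, both too few to test, and the list's summed level was 31.0 to 70.4 CPM and 41.9 to 67.1 CPM. Of 6 epithelial markers, Krt8 (1.12, adjusted p = 0.043) and Krt18 (1.44, adjusted p = 0.0444) were the 2 of 5 tested that were higher (median 1.12), with a summed level of 11.4 to 54.0 CPM in fl/fl and 21.8 to 270.3 CPM in iADKO, the highest in iADKO replicate 6. Without this mouse, 15 members were called in place of 16. None of 5 mesothelial markers was called (median 0.23, 312 to 651 CPM and 279.9 to 754 CPM). What part these cells have in the immunoglobulin values was not tested.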

How the data were processed

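Bulk mRNA of pmWAT was measured in 1 library per mouse. The deposited counts are the authors' unnormalized read numbers for 33618 Ensembl identifiers, and the deposited log2 values were made by the authors from them with the regularized log (rlog) of DESeq2. Per the labels and methods, strand-specific libraries were checked with FastQC 0.12.1 and aligned with STAR 2.7.11a to mm39. The counting tool and its handling of reads that map to several V genes are not given in the sources used here; 15 of 192 V members have another V gene at 98% identity or more. Of the identifiers, 33184 were in GENCODE vM39. Genotypes and replicate numbers came from the sample labels, and p-values measure the spread between mice.

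Genes were filtered with filterByExpr (16753 left), normalized by TMM and compared with the robust quasi-likelihood test of edgeR 4.0.16 in R 4.3.3, with Benjamini-Hochberg adjustment and a threshold of 0.05. The standard error of a fold change was taken as its size over the root of the F statistic. Shares were compared by exact permutation in Python 3.11.15. Totals were 18854223 to 19776491 counts. Within a genotype, chi-square over its degrees of freedom was 8.16 to 88.8 for any 2 mice, so no library was a copy of another. Scripts were tested on simulated data.

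Alternatives were DESeq2 size factors, TMM without immunoglobulin genes, DESeq2 1.42.0 with its Wald test, the replicate number as a block, a filter of 10 counts in each library, tests without a filter, runs of library numbers as a block (also with the run of 1 library joined to its neighbour), limma 3.58.1 on the rlog values, shares per exon length or as log odds, and each mouse left out. The members and gene lists were chosen with earlier results of these data known. Genes named were all constant genes and Jchain, the 6 Ighv, 6 Igkv and 3 Iglv genes with the most counts, Ighv7-1, called members with no overlap between genotypes, and Lmna. Others, such as Igkv7-33, Igkv8-34, Igkv6-32, Igkv6-23, Igkv8-28, Ighv1-39, Igkv1-88 and the V gene pairs, were chosen after their values were seen. From the gene lists, the most expressed genes were named, and of those related to antibodies the genes past the threshold. Other list genes were chosen after their values were seen.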

Additional observations from a re-analysis of the deposited data

Results flagged for a closer look

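Groups of 7 fl/fl or 6 iADKO mice were searched for a highest or lowest value that stood apart by Dixon's criterion. Of 94 groups, 22 had such a value, in each case the highest of its group. Of these groups, 18 belonged to 9 V genes named after their values were seen, some of them because 1 mouse stood out, and they gave 9 of the 22, so that their number cannot be read against chance. The other 76 groups gave 13. The criterion's chance rate of about 1 in 20 holds for normally distributed values, whereas values were used here without a log and varied widely between mice. Many of these groups also share mice and are not independent, so that the 13 cannot be read against this rate either.

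Of the constant genes, Ighg3 stood apart in fl/fl replicate 4 (269.9 CPM, the next 65.7 CPM) and in iADKO replicate 3 (281 CPM, the next 49.9 CPM), and with it the IgG share of fl/fl replicate 4 (11.6%, the next 5.52%). Ighm stood apart in fl/fl replicate 5 (2617 CPM), Ighg2b in fl/fl replicate 7 (176 CPM), Iglc2 in fl/fl replicate 4 (30.2 CPM) and iADKO replicate 5 (56.9 CPM), and Iglc3 in iADKO replicate 3 (22.3 CPM).

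Of the V genes, fl/fl replicate 7 had 5 such values: Igkv1-88 at 262 CPM (the next 12.3 CPM), Ighv1-9 at 249 CPM (the next 52.7 CPM), Ighv3-6 at 113 CPM, Igkv4-70 at 45.4 CPM and Ighv1-12 at 33.5 CPM. Igkv4-70 also stood apart in iADKO replicate 1 (30.4 CPM). Igkv8-34 did so in iADKO replicate 3 (127 CPM, the next 5.45 CPM) and, at a low level, in fl/fl replicate 2 (2.03 CPM). Ighv1-26 (114 CPM) and Igkv7-33 (3.59 CPM) stood apart in fl/fl replicate 5, Iglv2 (48.6 CPM) in fl/fl replicate 4, Iglv3 (18.8 CPM) in fl/fl replicate 3, Ighv12-3 (24.8 CPM) in iADKO replicate 2 and Igkv4-91 (70.7 CPM) in iADKO replicate 6. Their causes were not tested.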

How the results depend on the processing

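The count of 16 called members became 25 with DESeq2's Wald test, 3 with no filter on low counts, 0 with runs of library numbers as a block and 2 with the joined runs, and was 7 to 35 with 1 mouse left out; the cause was not tested. Over all genes, 5104 calls became 54 and 1986 with the blocks of runs, and were 3998 to 6604 with 1 mouse left out. In both blocked fits, runs holding a single group add nothing to the contrast, so that these fits compare fewer mice. Without iADKO replicate 4, 1 member, Ighv2-4, was called lower. The 3 members called with no filter were Igkv8-28, Ighv1-39 and Iglv3, and the 2 called with the joined runs were Igkv1-117 and Igkv12-46; these names were chosen after their values were seen.

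Same-numbered mice were not shown to be pairs: the correlations of their deviations were 0.0805, 0.169, 0.00688, -0.0265, 0.217 and 0.196, and 2 of 6 correlated best with their own number. With the replicate number as a block and fl/fl replicate 7 left out, 25 members were called, among them Igha (log2 fold change 0.87, adjusted p = 0.0118), Igkc (0.81, adjusted p = 0.0118) and Jchain (0.92, adjusted p = 0.0148), and over all genes 4833.

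The differences in share, iADKO minus fl/fl, crossed 0 with 1 mouse left out, at -4.97 to 1.06 percentage points for IgM, -0.821 to 0.777 for IgG and -0.821 to 5.19 for IgA, while lambda stayed at 0.575 to 1.21; none was called. Log2 fold changes that changed sign were all of genes not called in the fit of the report. With runs of library numbers as a block, Ighg3 was at -0.12 (-0.25 with the joined runs), Ighv9-3 at -0.17, Ighv1-9 at 0.58 (0.72) and Igkv1-88 at 0.58 (0.60), and with the joined runs Ighv1-12 was at 0.20 and Igkv4-70 at 0.072. With the replicate block, Ighv1-9 was at 0.97 (adjusted p = 0.0453), Iglv2 at 0.31, Ighv1-12 at 0.17 and Igkv1-88 at 1.03. Limma gave 0.29 for Ighv1-9 and 0.11 for Iglv2, and DESeq2 0.70 for Igkv1-88. With 1 mouse left out, the ranges that crossed 0 were -1.10 to 1.87 for Ighg3, -0.22 to 0.69 for Ighv11-2, -0.57 to 0.81 for Ighv1-9, -0.15 to 0.70 for Igkv14-126, -0.011 to 0.56 for Igkv1-135, -0.24 to 0.40 for Iglv2, -0.48 to 0.44 for Ighv1-12, -1.93 to 0.075 for Igkv4-70 and -2.87 to 0.78 for Igkv1-88.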

Other observations

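Immunoglobulin genes of other annotated kinds held few counts. Over the 13 libraries, 12 J segments had 5128 summed counts, 7 D segments 44, 46 V pseudogenes 556 and 1 C pseudogene 6, beside 2890269 on the members.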
